A study of Rattus norvegicus with 6 samples.

Results

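The 5 genes Acsl1, Acsl3, Acsl4, Acsl5 and Acsl6 encode the long-chain acyl-CoA synthetases of the rat, and their messenger RNA was followed here in the dopamine-rich part of the substantia nigra, the pars compacta, after rotenone. They were found as every array probe whose accession, without its version, is a RefSeq transcript of one of them, which gave 8 of 33849 probes, for 5 of the 4013 genes that could be named. The family was taken up because of Acsl4, which was chosen by its measured change between rotenone and solvent: that change depended on whether spots marked irregular by the scanner software were dropped. The Acsl4 difference is therefore given as a description with no test, and the contrast supports nothing about the family. The study compared 3 rats given rotenone, which blocks complex I of the respiratory chain, with 3 rats given the solvent, a mixture of dimethylsulfoxide and polyethylene glycol with the surfactant Pluronic F-127. The rotenone dose was 0.5 mg/kg each day over 28 days. All 6 were male Sprague Dawley rats, 5 months old, and in every rat an osmotic minipump under the skin delivered the fluid. The dissected region was cut out by laser, each rat gave 1 one-colour array, and the rotenone rats carry the numbers 16, 13 and 9 and the solvent rats the numbers 11, 7 and 1. In such tissue pieces fewer cells of a type and less RNA per cell cannot be told apart.

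Long-chain acyl-CoA synthetases join a free fatty acid to coenzyme A, the step that commits it to oxidation, to membrane phospholipids or to storage as triglyceride. The isoforms differ in the fatty acids they prefer and in where they sit in the cell. Acsl4 prefers arachidonic acid and other polyunsaturated fatty acids, and by loading them into phospholipids it makes membranes prone to lipid peroxidation and ferroptosis, an iron-dependent form of cell death. Acsl3 sits on the endoplasmic reticulum and on lipid droplets, Acsl1 serves oxidation and triglyceride synthesis in liver, muscle and fat, Acsl5 is found on mitochondria and the endoplasmic reticulum, and Acsl6 is abundant in brain, where it favours docosahexaenoic acid.

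Of 14 dopamine neuron markers listed, 11 were on the array by name and were tested, of which 8 were above background in all 6 rats. The exceptions were Pitx3, near background in all 3 rotenone rats, Foxa2 and Nr4a2. With rotenone 4 of the 11 were higher and 7 lower, with a median difference of -0.17, and none passed the adjusted test. That median is the value of Pitx3, which was tested only because it was above background in the 3 solvent rats. No lower level of these markers can be read from it. The median over the 11 was -0.17 without rotenone rat 16 as well. The lowest differences were those of Nr4a2 (-0.79) and Sncg (-0.67), and the highest those of Th (0.12) and Drd2 (0.23). Th stood at 12.85 ± 0.27 on the normalized log2 scale in rotenone rats and 12.74 ± 0.22 in solvent rats (SD, n = 3 each). The dopamine transporter Slc6a3, the astrocyte gene Gfap, the myelin gene Mbp and the microglial gene Aif1 were above background in all 6 rats. Of the markers of other cells that a captured piece can hold, 8 of 10 astrocyte genes, 8 of 11 oligodendrocyte genes, 3 of 8 microglia genes and 2 of 8 endothelial and pericyte genes were tested. The array of rotenone rat 16 stood apart. Its mean correlation with the other arrays was 0.931, against 0.956 to 0.964 among the rest, and 44.2% of its probes were above background, against 48.6% to 51.5%. Results that rest on this rat are given without it as well.

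One probe of each of the 5 genes was above background on all 6 arrays, meaning that the scanner marked it neither as near background nor as masked. These are GE19528 for Acsl4, GE19487 for Acsl3, GE1161545 for Acsl1, GE1168369 for Acsl5 and GE1271783 for Acsl6. The other 3 probes were not measurable. The second probes of Acsl1 (GE21628) and Acsl5 (GE13046) were near background on every array, with net signals between -1.4 and 11.2 and between 1.5 and 9.7. The second probe of Acsl6 (GE19457) was above background on 1 array only, that of solvent rat 1, at 14.8. The 256 negative control spots of an array had 95th percentiles of 10.8 to 12.2 on the same scale. So for Acsl1, Acsl5 and Acsl6 a second probe of the same gene gave no signal that could be compared, and each gene rests on 1 probe.

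The net signal, which is the mean of the spot minus the median of its local background, needs no normalization step and shows the raw data. It is not adjusted for the brightness of the whole array. The median net signal over all probes was 11.7 in rotenone rat 16 and 13.9 to 16.6 on the other arrays. Acsl4 had net signals of 2250.9, 1106.6 and 1943.5 in rotenone rats 16, 13 and 9, against 1622.2, 1631.7 and 1546.2 in solvent rats 11, 7 and 1. Rotenone rats 16 and 9 lay above every solvent rat and rotenone rat 13 lay below every one, so the groups overlapped. The mean was 1767 ± 592 in the rotenone group and 1600 ± 46.9 in the solvent group (SD, n = 3 each), a ratio of 1.1. The coefficient of variation was 33.5% among rotenone rats and 2.93% among solvent rats.

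**Figure D1:**
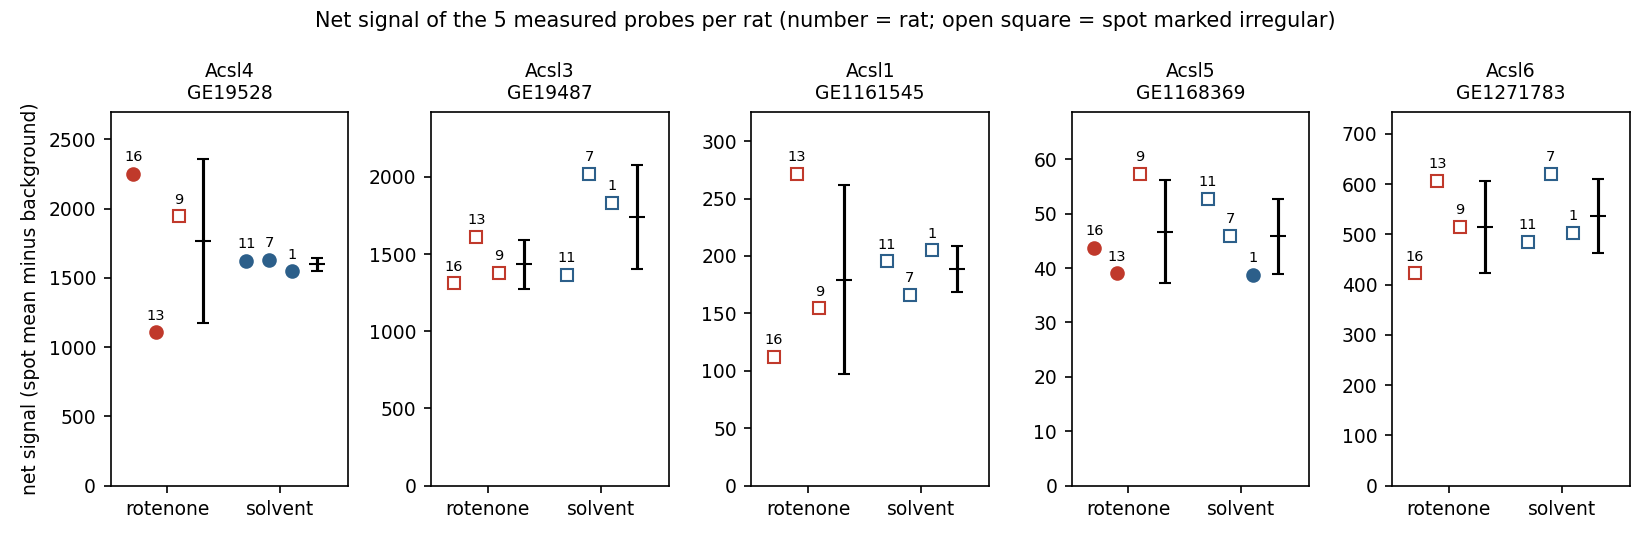
Net signal (linear, spot mean minus local background median) of the 5 probes above background on all arrays, 1 point per rat with its number, rotenone left of solvent in each panel; open squares are spots marked irregular, and the bars give mean ± SD (n = 3). The axes differ between panels. Rotenone rats 16 and 9 lie above and rat 13 below the 3 solvent rats for Acsl4, and each gene's groups overlap.

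Acsl3 had net signals of 1311.8, 1610.8 and 1378.9 in rotenone rats 16, 13 and 9, against 1367.5, 2019.6 and 1831.6 in solvent rats 11, 7 and 1. Solvent rats 7 and 1 were above all rotenone rats and solvent rat 11 was among them. Acsl1, the isoform of oxidation and triglyceride synthesis, had 112.3, 271.5 and 154.7 in rotenone rats 16, 13 and 9, against 195.2, 166.4 and 205.2 in solvent rats 11, 7 and 1. Here rat 13 was the highest of all and rat 16 the lowest, the reverse of Acsl4. Acsl6, the isoform abundant in brain, had 423.0, 606.1 and 515.3 in rotenone rats 16, 13 and 9, against 484.8, 620.2 and 502.6 in solvent rats 11, 7 and 1. Acsl5 was the closest to background of the measured probes, with 43.7, 39.0 and 57.3 in rotenone rats 16, 13 and 9, against 52.7, 45.9 and 38.8 in solvent rats 11, 7 and 1. For none of the 5 probes did the groups separate. Of all 16708 probes tested, 9.97% had groups that did not overlap.

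After background correction and quantile normalization with every spot kept, the Acsl4 probe averaged 10.79 ± 0.51 in rotenone rats and 10.65 ± 0.07 in solvent rats on the log2 scale (SD, n = 3 each), a difference of 0.14 ± 0.24 (SE). This difference was larger in size than that of 48.3% of the tested probes, so it lay near the middle of the array. It was -0.05 without rotenone rat 16, 0.05 without rotenone rat 9 and 0.43 without rotenone rat 13, so both its sign and its size depended on which rotenone rat was left out. For the other members each 95% interval of the difference included 0. Acsl3 differed by -0.18 (interval -0.56 to 0.21), Acsl5 by 0.14 (-0.24 to 0.51), Acsl6 by 0.08 (-0.29 to 0.46) and Acsl1 by 0.06 (-0.40 to 0.51). With each rat left out in turn, Acsl3 lay between -0.29 (without solvent rat 11) and -0.09, Acsl5 between 0.08 and 0.24, and Acsl6 between 0.00 and 0.17. Acsl1 changed sign, with 0.19 without rotenone rat 16 and -0.15 without rotenone rat 13. In limma's moderated test over all probes their adjusted p values were between 0.904 and 0.969. None of these 4 was called, where 0% of the 16708 probes tested passed an adjusted p of 0.05 and 4.94% had an unadjusted p below 0.05.

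The spread of Acsl4 was wider among rotenone rats than among solvent rats. Its SD on the log2 scale was 7.19 times as large in the rotenone group as in the solvent group, a ratio reached by 2.90% of the tested probes, whose median ratio was 1.2. For Acsl1 the ratio was 2.92, reached by 15.0% of probes, and for Acsl3, Acsl5 and Acsl6 it was 0.596, 1.47 and 1.03. With 3 rats per group these ratios are descriptions and were not tested.

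Acsl4 was one of few bright probes whose spots mostly carried no mark. Its spot was marked good on 5 arrays and irregular on 1, that of rotenone rat 9. The bright spots of Acsl3, Acsl1 and Acsl6 were marked irregular on every array, and the dimmer spot of Acsl5 on 3 arrays. On the arrays as a whole 97.9% to 99% of the probes with a net signal over 100 were marked irregular. Between 65 and 151 probes over 100 per array carried no mark. The 1 marked Acsl4 spot had a ratio of spot mean to spot median of 0.78, while its unmarked spots lay between 0.89 and 1.16. Over all spots with a net signal between 1000 and 3000, that ratio had a 5th to 95th percentile range of 0.75 to 1.23 for the 4447 irregular spots and 0.78 to 1.42 for the 130 good ones, so the ranges of the 2 kinds of spot largely overlapped. With the spot median in place of the spot mean the Acsl4 difference was 0.23.

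When marked spots were left out before the quantile step, the same Acsl4 spots gave a difference of 2.53 ± 0.55 (SE), on 2 rotenone and 3 solvent values. The values were 11.78 and 11.08 in rotenone rats 16 and 13, against 10.34, 8.11 and 8.26 in solvent rats 11, 7 and 1. With every spot kept, the same arrays had stood at 11.18 and 10.21 in rotenone rats 16 and 13, against 10.73, 10.62 and 10.60 in solvent rats 11, 7 and 1. Solvent rats 7 and 1 thus fell by more than 2 log2 units and rotenone rats 16 and 13 rose, although no spot's own signal had changed. The groups no longer overlapped. That was so for 17.4% of the 4283 probes testable in this way, with as few as 2 values per group, and 0.0467% of them passed an adjusted p of 0.05. Nothing can be read from this about Acsl4, which was chosen on this contrast.

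**Figure D2:**
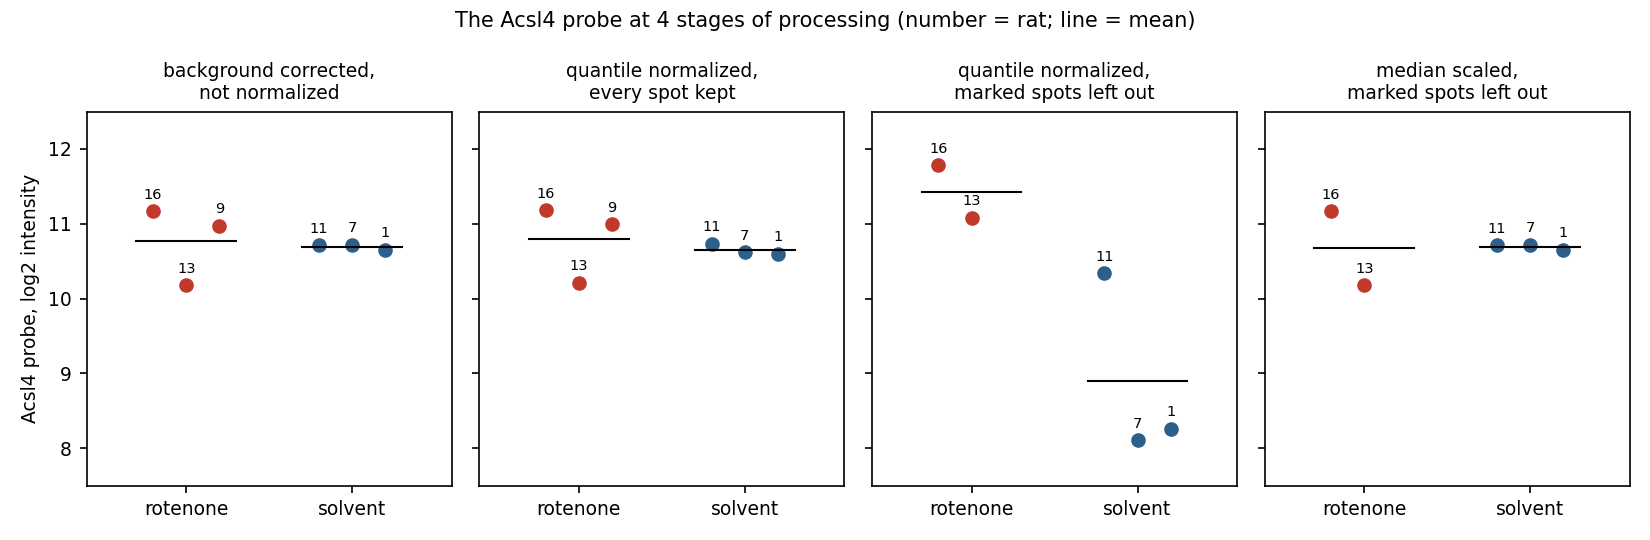
Log2 intensity of the Acsl4 probe, 1 point per rat with its number and a line at each group's mean, rotenone left of solvent, at 4 stages of processing. The difference of means is 0.08 after background correction, 0.14 with every spot kept, 2.53 with marked spots left out before quantile normalization and -0.02 with the same spots left out and the medians of the arrays equalised.

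The quantile step gives the same value to spots of equal rank, taken relative to the number of spots left on an array. Each array kept between 21407 and 23664 unmarked spots, and the rank of Acsl4 among them differed between arrays. It was 29 and 33 in rotenone rats 16 and 13, against 38, 105 and 94 in solvent rats 11, 7 and 1. The arrays of solvent rats 7 and 1 kept 142 and 151 unmarked probes over a net signal of 100, while the rotenone arrays kept 68, 77 and 67 and that of solvent rat 11 kept 65. Among all probes the Acsl4 probe ranked 285, 808 and 355 in rotenone rats 16, 13 and 9, against 469, 531 and 544 in solvent rats 11, 7 and 1. With the same marked spots left out but the medians of the arrays equalised in place of the quantiles, the Acsl4 difference was -0.02. With quantiles set on every spot and the marked spots left out only afterwards, it was 0.05. The large value thus appeared only where marked spots were left out before the quantile step, among the alternatives run on the scanner files.

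**Figure D3:**
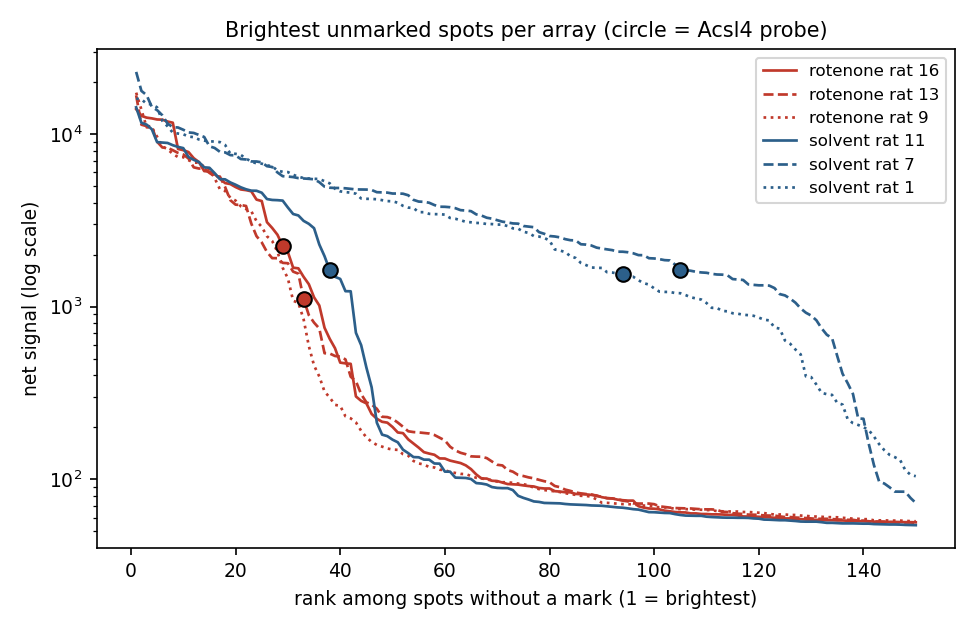
Net signal (log scale) of the 150 brightest spots without a mark on each array against their rank, 1 line per rat, with circles at the Acsl4 probe, which was marked and is absent for rotenone rat 9. The lines of solvent rats 7 and 1 stay above a net signal of 1000 to about rank 100, and the Acsl4 probe lies at ranks 105 and 94 there, against 29 to 38 on the other arrays where it is unmarked.

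Other bright probes moved in the same way. There were 14 probes with a net signal over 100 on every array that kept at least 2 unmarked values in each group, of which 6 had a gene name. With every spot kept, 0 of the 14 had a difference over 1 in size. With marked spots left out before the quantile step, 8 had one, all of them upward, and with medians equalised 0 had one. Their differences moved by a median of 1.05 when marked spots were left out, against 0.0694 for the other probes testable in that setting. The unnamed probes GE1275290, at 3.21 against -0.46 with every spot kept, and GE20042, at 2.21 against -0.20, moved by more than Acsl4 did. Qdpr, which regenerates the cofactor of tyrosine hydroxylase, stood at 2.04 against 0.10, and Ywhag, a 14-3-3 protein, at 1.16 against 0.36. The probes that moved least were GE1152142, at -0.07 against -0.14, and that of Gapdh, at -0.10 against -0.25.

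**Figure D4:**
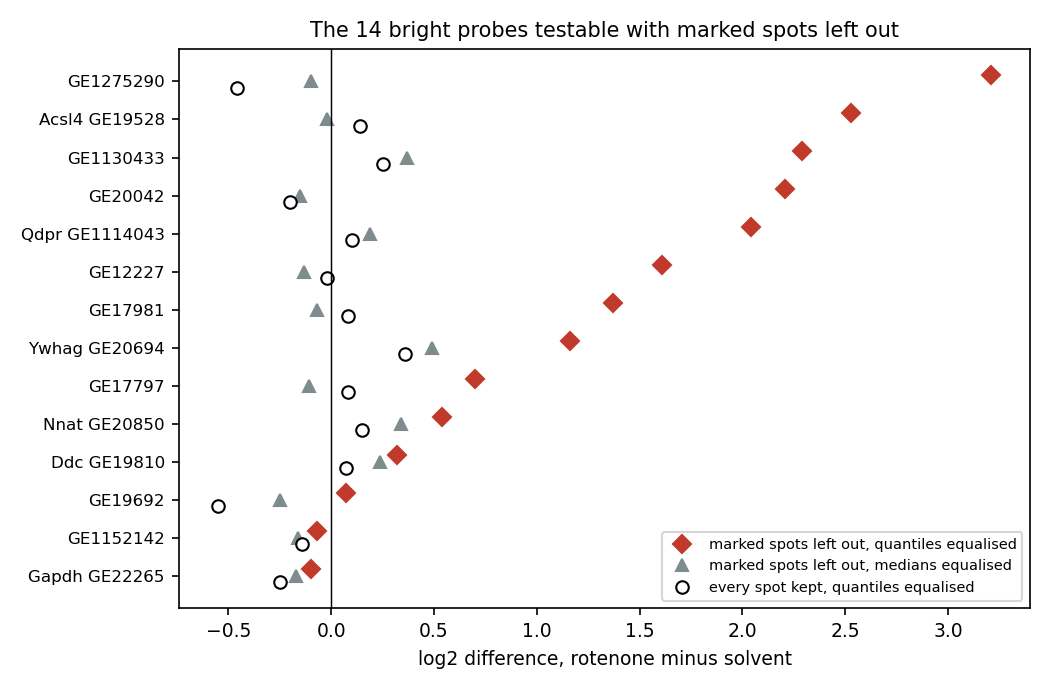
Log2 difference (rotenone minus solvent) of the 14 bright probes that could be tested with marked spots left out, by 3 ways of processing, ordered by the value with marked spots left out before quantile normalization. In that setting 8 of 14 differences exceed 1, Acsl4 at 2.53 among them, and with every spot kept or with medians equalised none does.

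The isoforms took different courses from rat to rat. Over the 6 arrays the normalized log2 values of Acsl4 and Acsl5 had a Pearson r of 0.87 (Spearman 0.94), and those of Acsl4 and Acsl1 an r of -0.85 (Spearman -0.71). These are the extremes of 10 pairs, and the points share their arrays. Acsl5 was close to background, and rotenone rat 16 was its highest array only after normalization, at 6.85. The net signal of Acsl5 in that rat was 43.7, below the 52.7 and 45.9 of solvent rats 11 and 7. Without rotenone rat 16 the values were 0.79 and -0.83 over 5 arrays, and without rotenone rats 16 and 13, the arrays farthest from the median of Acsl4, they were 0.92 and -0.29 over 4 arrays. The opposite course of Acsl4 and Acsl1 thus rested on these 2 rats. Of all tested probes, 1.73% had an r with Acsl4 of 0.87 or more and 2.16% one of -0.85 or less. The same rats differed in other cells' markers. Against the average of the solvent rats, the 8 tested astrocyte genes had a median deviation of -0.49, 0.33 and 0.13 in rotenone rats 16, 13 and 9, and between -0.05 and -0.02 in the solvent rats. That of the 11 dopamine neuron genes was -0.19, -0.30 and 0.01 in rotenone rats 16, 13 and 9, and between -0.13 and 0.09 in the solvent rats. The 5 GABA neuron genes had -0.42, 0.17 and -0.15 in rotenone rats 16, 13 and 9, and between -0.12 and 0.13 in the solvent rats. The only blood cell gene tested stood at 1.18 in rotenone rat 13, and the only gene of ependyma, choroid plexus and meninges at 0.72 in rotenone rat 16. The summed net signal of the dopamine neuron genes was 39973, 26381 and 30750 in rotenone rats 16, 13 and 9, against 29428, 36934 and 32821 in solvent rats 11, 7 and 1. It was highest in rat 16 and lowest in rat 13 as for Acsl4, but the other rats were ordered differently. Such a sum is carried by the brightest genes, and the median deviation of the same genes in rat 16, -0.19, was below that of every solvent rat. The summed net signal of the astrocyte genes ranged from 14611 to 16747 in rotenone rats and from 14548 to 16162 in solvent rats. Their part in the Acsl values was not tested.

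Among the 2262 other named genes measured, those with profiles close to Acsl4 over the 6 arrays included Blvra, which makes bilirubin from biliverdin (r = 0.99), and the aquaporin Aqp6 (0.99). Aqp6 lay near background, above it on 4 arrays. Close to Acsl3 were Arl3 (0.97) and Car11 (0.97). Acsl6 was followed by Ptpro (0.98) and Reln (0.97), and Acsl5 by Myh7 (0.97), Tgoln2 (0.94) and the matrix protein gene Mgp (0.93). Acsl1 was followed by the vesicular GABA transporter Slc32a1 (0.99, above background on 5 arrays), Dab2 (0.99) and Aurkb (0.95). For Aurkb, above background on 3 arrays, r was 0.58 without the 2 arrays farthest from the median. For Slc32a1 and Dab2 it was 0.93 and 0.94. The net signals of Slc32a1, Dab2 and Myh7 were low, at 19.9 to 105.8, 17.1 to 62.7 and 20.7 to 43.4. Slc32a1 and Dab2 were highest in rotenone rat 13. The r values given here are among the highest of many over 6 points that share their arrays.

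The wider pathway did not pass the test either. Of 209 genes in 5 lipid lists, 106 were on the array by name and 71 were tested. None passed an adjusted p of 0.05 in limma, while 6 (8.45%) had an unadjusted p below 0.05, against 4.94% of all probes. Of the 71, 20 were higher and 51 lower with rotenone, and the median difference over all 16708 probes was 0.00892. Without rotenone rat 16 the medians of the 5 lists lay between -0.06 and 0.02, and that over all probes was 0.002. The size of the negative list medians thus rested largely on this rat. Most of the 71 genes were still lower without it, many of them only slightly. Beside these lists, the 7 tested general neuron genes had median deviations of -0.72, -0.20 and -0.18 in rotenone rats 16, 13 and 9, and between -0.05 and 0.05 in the solvent rats. The 8 oligodendrocyte genes had -0.56, -0.02 and -0.30 in rotenone rats 16, 13 and 9, and between -0.31 and 0.33 in the solvent rats. What part this had in the lipid genes was not tested. Among 10 genes of fatty acid uptake and acyl-CoA handling the median was -0.10 (-0.04 without rotenone rat 16), with 3 higher and 7 lower. It held Acsbg1, a related acyl-CoA synthetase of brain (-0.36 ± 0.33, SE), Acbd3 (-0.15), the transporter and very long-chain synthetase Slc27a2 (0.24) and the thioesterase Acot1 (0.25), which undoes the reaction. Without rotenone rat 16 the difference of Acsbg1 was -0.02, that of Slc27a2 0.38 and that of Acot1 0.13.

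Of 23 genes of fatty acid oxidation, 20 were lower and 3 higher, with a median of -0.14, and of -0.06 without rotenone rat 16. Acadvl, which starts the oxidation of long chains, differed by -0.50 ± 0.25 (SE) and Eci1, needed for unsaturated ones, by -0.43 ± 0.29, and without rotenone rat 16 these were -0.22 and -0.10. Acad9, also an assembly factor of respiratory complex I, differed by 0.20 (0.03 without rat 16). Acads, of short-chain oxidation, had net signals of 748.6, 31.8 and 46.5 in rotenone rats 16, 13 and 9, against 46.0, 49.8 and 45.7 in solvent rats 11, 7 and 1. Its difference of 1.00 lay in rat 16 alone and was -0.07 without it.

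Genes of fatty acid synthesis, elongation and desaturation had a median of -0.30 over 11 genes with 9 lower and 2 higher, and -0.06 without rotenone rat 16. The desaturase Scd2 differed by -0.65 ± 0.32 (SE; -0.21 without rat 16) and Insig2, which holds back sterol and lipid synthesis, by -0.54 ± 0.16 (-0.47 without rat 16). Acly, which makes the acetyl-CoA for synthesis, had net signals of 1939.5, 1129.2 and 1299.4 in rotenone rats 16, 13 and 9, against 905.8, 1041.4 and 999.9 in solvent rats 11, 7 and 1. Each rotenone rat lay above each solvent rat, with a difference of 0.59 ± 0.20 and an adjusted p of 0.895 in limma, and of 0.38 without rat 16. Acly was named for its extreme difference, and the groups did not overlap for 9.97% of all tested probes. Scd, the second desaturase, differed by 0.40 (0.12 without rat 16).

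Glycerolipid and phospholipid genes were balanced, with 7 of 14 higher, 7 lower and a median of 0.01. The choline kinase Chkb differed by -0.43 ± 0.33 (SE; 0.01 without rotenone rat 16). Agpat4, an acyltransferase that uses acyl-CoA to build phosphatidic acid, differed by 0.27, and by 0.00 without this rat, and Pcyt1a, of phosphatidylcholine synthesis, by 0.27 (0.19 without it). The phospholipase Pla2g5 was near background in all 3 rotenone rats and was tested only because it was above background in the 3 solvent rats. Its means were 6.01 in rotenone and 6.21 in solvent rats. The difference of -0.2 had an interval of -0.55 to 0.14, which included 0. No lower level with rotenone can be read from it.

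The 13 tested genes of ferroptosis and lipid peroxidation, the process in which Acsl4 takes part, had a median of -0.08, with 5 higher and 8 lower, and of 0.01 without rotenone rat 16. The ferritin heavy chain Fth1, which stores iron, had net signals of 406.0, 1089.0 and 590.9 in rotenone rats 16, 13 and 9, against 1400.0, 1321.3 and 1212.9 in solvent rats 11, 7 and 1. Each rotenone rat lay below each solvent rat, with a difference of -0.83 ± 0.27 (SE) and an adjusted p of 0.895 in limma, and of -0.58 without rat 16. Like Acly, Fth1 was named for its extreme difference, beside the 9.97% of all tested probes without overlap. Aldh2, which clears aldehydes from peroxidized lipids, differed by -0.77 ± 0.27 (-0.49 without rat 16). Prdx6, which reduces peroxidized phospholipids, had 3183.4, 1931.8 and 2096.6 in rotenone rats 16, 13 and 9, against 1417.9, 1927.4 and 1725.0 in solvent rats 11, 7 and 1. On the normalized scale it differed by 0.54 ± 0.20, and by 0.34 without rat 16. The iron transporter Slc11a2 differed by 0.21, and by 0.01 without rat 16.

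**Figure D5:**
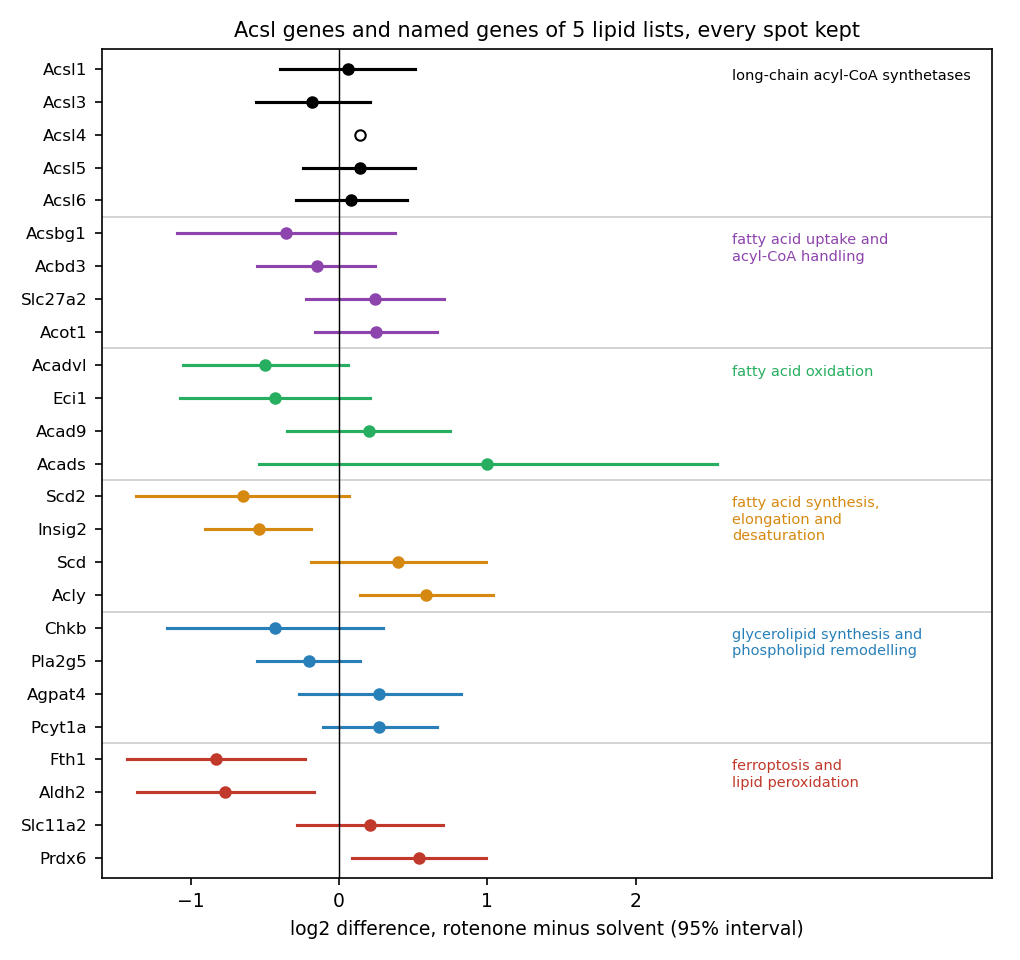
Log2 difference (rotenone minus solvent, every spot kept) for the 5 Acsl genes and for the genes with the lowest and highest values of 5 lipid lists, n = 3 rats per group. Lines are 95% intervals, and Acsl4, an open circle, has none because it was chosen on this contrast. The 5 Acsl points lie between -0.18 and 0.14. Acsl4 was not tested, and none of the other genes shown passed the adjusted test. Pla2g5 was below background in the rotenone rats.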

How the data were processed

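The authors' scanner files give each spot's mean and local background median as a linear intensity, their difference (net signal) and that difference divided by 1 number per array near its median, per the file headers and the values. In the value table the column medians were 0.999, 0.998 and 0.996 for rotenone rats 16, 13 and 9 and 0.994, 1 and 0.996 for solvent rats 11, 7 and 1. The deposited value table holds the last, also as a linear intensity. The marks (good, near background, irregular, contaminated, masked, saturated) are the usual reading of the letters in the mark column, whose meaning the files do not spell out. RNA (2 µg) was amplified and labelled with biotin, per the labels' protocols.

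Probes were named through RefSeq transcripts of assembly GRCr8 (4675 of 33849). Background was corrected with normexp (offset 50) on all spots, control spots were then dropped, and quantile normalization of the log2 values followed. Probes above background on at least 3 of 6 arrays (16708) were compared by two-sided tests in limma 3.58.1 (R 4.3.3), p values being adjusted over all of them after Benjamini and Hochberg. The offset draws differences towards 0. The replicate is the rat, and the number of arrays limits the precision; 3 against 3 cannot go below an exact permutation p of 0.1.

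Members, lists and alternatives were chosen with earlier results of these data known. Named were all Acsl probes, the 2 highest and 2 lowest genes of each lipid list, the 3 named genes with the highest Pearson r to each member, and tissue markers. Some genes that this rule names are not reported here. A gene with several tested probes is given by its brightest. Qdpr, Ywhag, Gapdh, the probes GE1275290, GE20042 and GE1152142 and the markers Pitx3, Foxa2, Nr4a2, Sncg and Drd2 were singled out after their values were seen.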

Additional observations from a re-analysis of the deposited data

How the results depend on the processing

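The Acsl4 difference of 0.14 moved by more than the spread between rats in 2 of 20 alternatives: 2.53 with marked spots left out before quantile normalization and 2.22 in the deposited value table as it stands, where the column of solvent rat 7 does not match its scanner file. Not all of the 20 were free to move it. A changed filter left the Acsl4 values as they were. Leaving marked spots out after normalization removed only rotenone rat 9 for this probe, so it repeated the 0.05 without that rat. The lowest of the others was -0.05, with rotenone rat 16 left out, and the highest 0.43, with rotenone rat 13 left out, with 0.32 for the authors' scaled intensity and 0.12 for median scaling. No gene of the lipid lists was called in any of the 20, and no other Acsl gene in any that could give it a value, since the 3 that left out marked spots kept too few spots of these genes. Those 3 tested only 4283 of the 16708 probes, so list genes such as Acly were not tested there. The count of probes called, 0 in the main setting, was 2 with marked spots left out before normalization, 1 with the spot median (chosen after seeing the data) and 0 to 3 with a rat left out, the 3 without solvent rat 1; the cause was not tested. File date as a block, which sets solvent rat 7 apart and so repeats the setting without that rat, gave 0.13 for Acsl4. For the list of fatty acid synthesis the median of -0.30 moved in 8 of the 20: it was -0.06 without rotenone rat 16, -0.56 with plain background subtraction, -0.47 with the authors' scaled intensity, -0.46 with an offset of 16, between -0.15 and -0.11 with marked spots left out, and 1.16 in the deposited value table. With marked spots left out this median covered fewer genes than in the main setting, so it is not the same set that moved. Acsl3 was -0.35 with the spot median and Acsl5 0.29 with plain background subtraction. The 3 rats per group and the 1 measurable probe per gene limit the precision.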

Other observations

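At the position of the Acsl4 probe the deposited value table has 192.2, 74.71 and 139.4 for rotenone rats 16, 13 and 9 and 110.6, 1.946 and 92.56 for solvent rats 11, 7 and 1. The scanner files have the same scaled intensities there except for solvent rat 7, whose value is 101.5. Over all probes 0.898% of that column equals its scanner file within the rounding tolerance, against 100% of the other 5 columns. The Acsl4 difference in that table, 2.22, uses the value of 1.946.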
